A study of Mus musculus with 4 samples.

Results

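The genes Ptch1, Fancc and Aopep lie side by side on mouse chromosome 13, and the Isl1 peaks in and around them were mapped in chromatin of the embryonic genital tubercle, the outgrowth that forms the penis or clitoris. Peaks were selected by position: those whose midpoint lay inside one of the 3 genes or within 500 kb of Ptch1 (build mm10). They numbered 21 of 8860 peaks in replicate 1 and 27 of 10162 in replicate 2, and 18 of the 6834 regions in which peaks of both replicates overlapped by at least 1 bp, called shared regions here. The locus itself was chosen from earlier counts of these same peaks, so its peak numbers and scores are given as a description, without a test. The samples were 2 Isl1 ChIP-seq replicates and 2 input DNA samples from wildtype CD1 embryos at E14.5 (embryonic day). An antibody against ISL1 pulled down crosslinked, sheared chromatin, and the DNA was sequenced (ChIP-seq, chromatin immunoprecipitation followed by sequencing). Each ChIP sample had its own peak list, and the inputs were not analysed here. No label says whether the replicates came from separate litters or pools, so the spread between them may be technical.

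Isl1 is a LIM-homeodomain transcription factor of the tubercle mesenchyme. Ptch1 encodes the receptor of hedgehog ligands: without ligand it holds back Smoothened, and on ligand binding Smoothened signals to the Gli transcription factors. Ptch1 is itself a target of the pathway and limits it by feedback, and in the tubercle the ligand Shh comes from the urethral epithelium and acts on the surrounding mesenchyme. Fancc encodes a subunit of the Fanconi anaemia core complex, which acts in repair of DNA crosslinks. Aopep encodes aminopeptidase O, a zinc metallopeptidase of the M1 family. Aopep reads towards Ptch1, whereas Fancc and Ptch1 read the other way, and Aopep and Fancc overlap by 24.8 kb at their distal ends.

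The start of Ptch1 is shown because the closest shared regions lay on either side of it and no peak lay on it. The window runs from 250 bases before the start to 50 after (RefSeq, GRCm38.p6, chr13:63565686-63565985, minus strand). The start of Aopep (chr13:62964643-62964942, plus strand) is shown because 6 shared regions lay just before it, outside the selected set. Capitals mark the homeodomain core TAAT, read on either strand.
Ptch1: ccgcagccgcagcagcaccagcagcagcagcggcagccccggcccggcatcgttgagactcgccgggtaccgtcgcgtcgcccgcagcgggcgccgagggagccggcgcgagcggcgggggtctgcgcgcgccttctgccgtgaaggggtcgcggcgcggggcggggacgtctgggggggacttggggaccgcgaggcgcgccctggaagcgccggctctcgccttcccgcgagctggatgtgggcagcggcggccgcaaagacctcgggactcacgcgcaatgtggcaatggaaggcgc
Aopep: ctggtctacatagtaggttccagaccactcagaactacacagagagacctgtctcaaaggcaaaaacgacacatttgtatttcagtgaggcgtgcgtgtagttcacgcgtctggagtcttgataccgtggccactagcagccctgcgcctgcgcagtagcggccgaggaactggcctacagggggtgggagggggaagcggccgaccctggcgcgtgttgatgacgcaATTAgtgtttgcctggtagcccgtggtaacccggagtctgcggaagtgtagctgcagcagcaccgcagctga
No peak of either list overlapped the promoter window of Ptch1, Fancc or Aopep. The search, on both strands, used 3 motifs: TAAT, the LIM-homeodomain type CTAATG, which contains TAAT, and the Gli type GACCACCCA. TAAT had 1 match in the Aopep window and 0 in those of Ptch1 and Fancc, and 58.0% of the 32851 promoter windows of the table held it. CTAATG and GACCACCCA had no match in the 3 windows, and were held by 7.36% and 0.253% of all windows. The Ptch1 window was rich in G and C, at 76.3%, against a median of 52.7% over all windows, and held 47 CG pairs against a median of 7. Sequences of the peaks themselves were not analysed here.

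Ptch1 (chromosome 13, 63508328 to 63573460, 65.1 kb) held 2 shared regions, and they stood on opposite sides of its start. The stronger had its midpoint 2.48 kb downstream of the start (chr13:63563092-63563399). Its peaks had scores of 327 in replicate 1 and 171 in replicate 2, above 90.6% and 75.9% of all peaks of those lists, and their midpoints were 7 bp apart. The score is the authors' whole-number peak score, whose formula is not given in the sources used here and which need not be comparable between libraries. In replicate 1 this was the highest of the 21 peaks of the locus, and in replicate 2 the fifth of 27. The weaker region lay 1.12 kb upstream of the start, still inside the annotated gene, which runs 7.72 kb beyond the start given by the promoter table (chr13:63566797-63566984). It had scores of 36 in replicate 1 and 51 in replicate 2, above 6.85% and 11.0% of the peaks of those lists, so both replicates placed it among their weakest peaks.

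Further peaks inside Ptch1 appeared in a single list. Replicate 2 had a peak 0.844 kb upstream of the start (score 66) and another 1.94 kb upstream (score 64), so that this replicate had 3 peaks in a row upstream of the start. Replicate 1 had 1 peak far into the gene, 50.04 kb downstream (score 36). Ptch1 therefore held 3 peaks in replicate 1 and 4 in replicate 2, of which 2 in each list were shared.

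**Figure D1:**
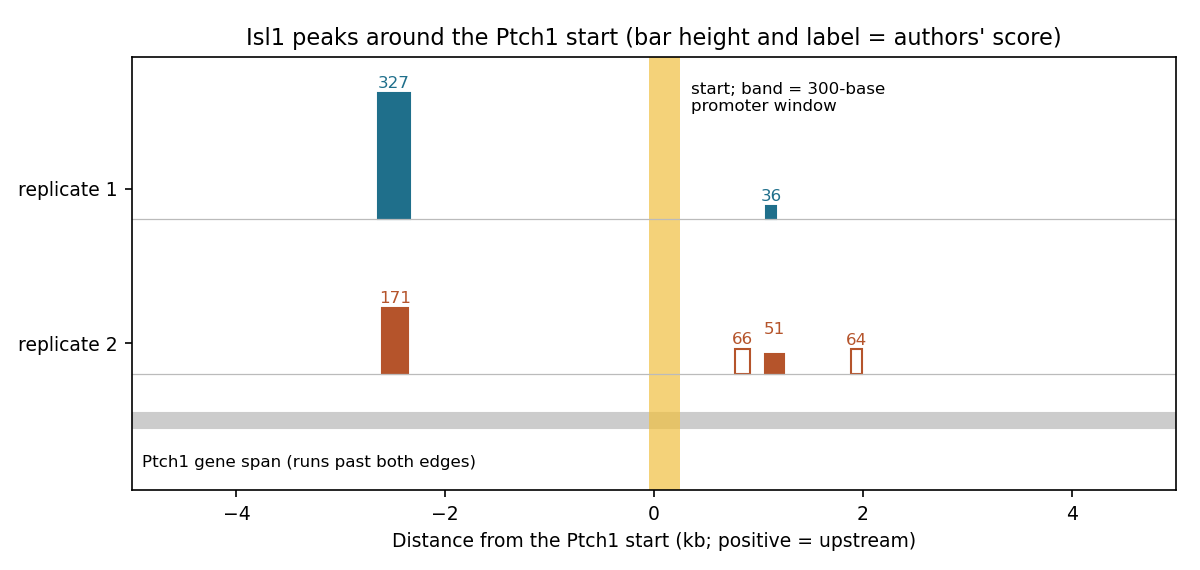
Isl1 peaks within 5 kb of the Ptch1 start, drawn at their true width (x axis, kb from the start, upstream to the right), with the authors' score as bar height and label. Filled bars overlapped between replicates and open bars were in one list alone. Both replicates had their strongest peak downstream of the start (327 and 171), and the 300-base window at the start held none.

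Fancc (chromosome 13, 63301334 to 63497292, 196 kb) also held 2 shared regions, and both lay in its distal part, far from its start. The first (chr13:63332921-63333197) had scores of 55 in replicate 1 and 37 in replicate 2. It lay 98.7 kb from the Fancc start of the promoter table, which itself lies 65.5 kb inside the annotated gene. The second (chr13:63335431-63335619) had scores of 72 and 98 in replicates 1 and 2 and lay 2.51 kb from the first. Neither stood above the list median (90 in replicate 1, 96 in replicate 2) in both replicates. No list added a peak inside Fancc, so the replicates placed the same 2 peaks there. From there to the distal part of Ptch1, a stretch of 180 kb (63335620 to 63515649) that takes in the Fancc start held no peak of either list.

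Aopep (chromosome 13, 62964893 to 63326096, 361 kb) held 7 shared regions, more than any other gene of the locus. They fell into a group near its start and a group in its distal part, with a single region between them. Near the start, the first region lay 49.6 kb into the gene (chr13:63014314-63014628, scores 93 in replicate 1 and 142 in replicate 2). A close pair followed, with midpoints 0.341 kb apart: chr13:63023186-63023514 with scores of 66 in replicate 1 and 146 in replicate 2, and chr13:63023651-63023873 with 98 and 111. All 3 scored higher in replicate 2.

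The strongest region inside Aopep stood alone, 147 kb from its start (chr13:63111431-63111931). Its scores were 314 in replicate 1 and 257 in replicate 2, above 90.0% and 86.7% of those lists, and it had the widest overlap of the locus, 418 bp. It was the highest peak of the locus in replicate 2 and the second in replicate 1.

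The distal part of Aopep held the other 3. The region at chr13:63245716-63246038 had scores of 136 in replicate 1 and 146 in replicate 2, and that at chr13:63278867-63279037 had 61 and 60. The region at chr13:63289436-63289819 had 205 and 203 and also lay inside Gm16907, a long non-coding RNA gene. For these 3 the replicates gave nearly the same scores, with replicate 1 over replicate 2 at 0.932, 1.02 and 1.01. Over the 7 regions of Aopep the median score was 98 in replicate 1 and 146 in replicate 2, and 5 of the 7 were above the list median in both replicates.

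The last region lay 10.9 to 11.6 kb from the mature microRNAs of the cluster miR-23b, miR-27b and miR-24-1, which sits inside Aopep with the hairpin of miR-3074-1 overlapping it, 50 bp short of the end of Fancc. MicroRNAs pair with messenger RNAs through the seed, bases 2 to 8, and lower their output. The arms below, from RefSeq (GRCm38.p6), are shown to identify the cluster, each with its seed in capitals. No peak of either list lay on it.
mmu-miR-23b-5p: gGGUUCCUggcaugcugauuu
mmu-miR-27b-3p: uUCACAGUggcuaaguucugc
mmu-miR-24-3p: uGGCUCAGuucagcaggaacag

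Outside the 3 genes lay 7 shared regions, all on the upstream side of Ptch1. The selection left little room on the other side, where only the 11.0 kb gap between Fancc and Ptch1 lay outside the 3 genes. The first of the 7 regions was 136 kb from the Ptch1 start inside the non-coding gene 1700024I08Rik (chr13:63701215-63701461, scores 118 in replicate 1 and 164 in replicate 2). The other 6 formed a cluster of 91.7 kb beyond Ercc6l2, which encodes a helicase-like protein linked to DNA repair, and their midpoints lay 337 to 428 kb from the Ptch1 start. Ercc6l2 itself held no peak of either list.

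Within that cluster the replicates ranked the regions differently. The region at chr13:63915228-63915450 had the highest score in replicate 2 (196, against 93 in replicate 1), and that at chr13:63994102-63994277 the highest in replicate 1 (176, against 51 in replicate 2), a ratio of 3.45, the highest of the locus. This region was nearest to Hsd17b3, whose enzyme makes testosterone from androstenedione in the testis, at 64.1 kb. The region closest to Ercc6l2, at 2.22 kb (chr13:63902406-63902635), lay inside the non-coding gene Gm46423 and had 93 in replicate 1 and 51 in replicate 2.

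The remaining cluster members had moderate scores in both lists. The region at chr13:63917273-63917480 had 76 in replicate 1 and 75 in replicate 2, and that at chr13:63952312-63952453 had 73 and 84. The region at chr13:63940141-63940481 had 102 in replicate 1 and 174 in replicate 2 and was the only member of the cluster with at least 100 in both.

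**Figure D2:**
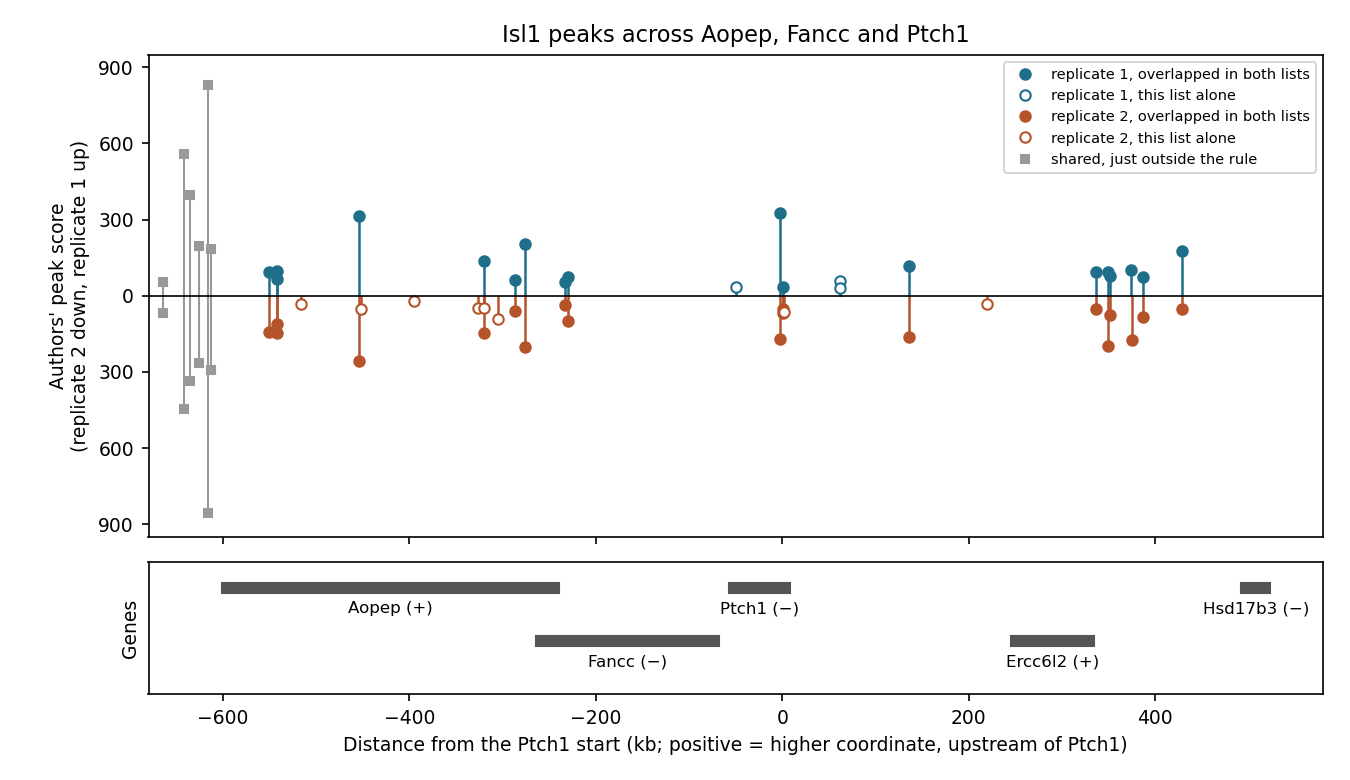
Authors' score of each Isl1 peak (y axis, replicate 1 upward and replicate 2 downward) by distance from the Ptch1 start (x axis, kb), with gene spans and strands below. Filled circles overlapped between replicates, open circles were in one list alone, and grey squares are the 6 shared regions just below the selected stretch. The grey squares reach 830 and 854, while no circle exceeds 327.

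Stronger regions lay just outside the selected stretch. The members nearest to its lower boundary, the Aopep start, were the 3 described near that start, 49.6 to 58.9 kb inside it. Just outside it, 12.4 to 63.2 kb before the Aopep start, lay 6 shared regions within 50.8 kb, with scores of 53 to 830 in replicate 1 and 67 to 854 in replicate 2. Of these, 3 were in the highest 10% of all shared regions by the lower of their replicate scores, whereas none of the 18 members was. The strongest of the 6 lay 15.2 kb before the Aopep start (chr13:62949373-62949982, scores 830 in replicate 1 and 854 in replicate 2). At the upper boundary the last member lay 79.3 kb inside, and the nearest region outside was 162 kb past the boundary, inside Cdc14b (scores 131 in replicate 1 and 233 in replicate 2).

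The share of peaks found in both lists was set beside that of all peaks. In replicate 1, 18 of 21 were shared (85.7%, Wilson 95% interval 65.4 to 95.02%), against 78.5% of all its peaks. In replicate 2, 18 of 27 were shared (66.7%, 47.8 to 81.4%), against 68.3% of all its peaks. Both intervals cover counting error only and include the value of the whole list.

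Peaks in one list alone had lower scores than shared peaks, in the locus and in the whole series, where their medians were 60 against 104 in replicate 1 and 66 against 126 in replicate 2. In the locus, the 3 of replicate 1 had scores of 31, 36 and 58, against a median of 93 for its 18 shared peaks, and besides the one in Ptch1 they formed a pair 61.7 and 61.8 kb upstream of the Ptch1 start. The 9 of replicate 2 had scores of 22 to 91 with a median of 49, against a median of 126.5 for its shared peaks. Of these 9, 6 lay inside Aopep, so that Aopep held 7 peaks in replicate 1 and 13 in replicate 2. The highest of them had a score of 91 (chr13:63260551-63260760). The others of replicate 2 were the 2 upstream of the Ptch1 start and 1 between Ptch1 and Ercc6l2 (score 33).

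Scores of shared regions ran together across the locus without matching closely. Replicate 1 had the higher score in 8 of 18 regions (44.4%), near the 40.6% of all shared regions (2772 of 6834), and replicate 2 in 10. The ratio of replicate 1 to replicate 2 ranged from 0.452 to 3.45 with a median of 0.907, against a median of 0.881 over all shared regions. The Spearman correlation of the scores across the 18 regions was 0.644, against 0.717 across all 6834, given as a description because regions of the same 2 libraries are not replicates. Both scores were at least 50 in 16 of the 18 regions and at least 100 in 6, of which 3 lay in Aopep, 1 in Ptch1 and 0 in Fancc. Of all 6834 shared regions, the lower of the 2 scores was under 51 in 16.8% and under 102 in 55.4%. The median of the lower score was 84 in the locus and 91 over all shared regions. Midpoints of paired peaks differed by a median of 34 bp in the locus and 21 bp over all.

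**Figure D3:**
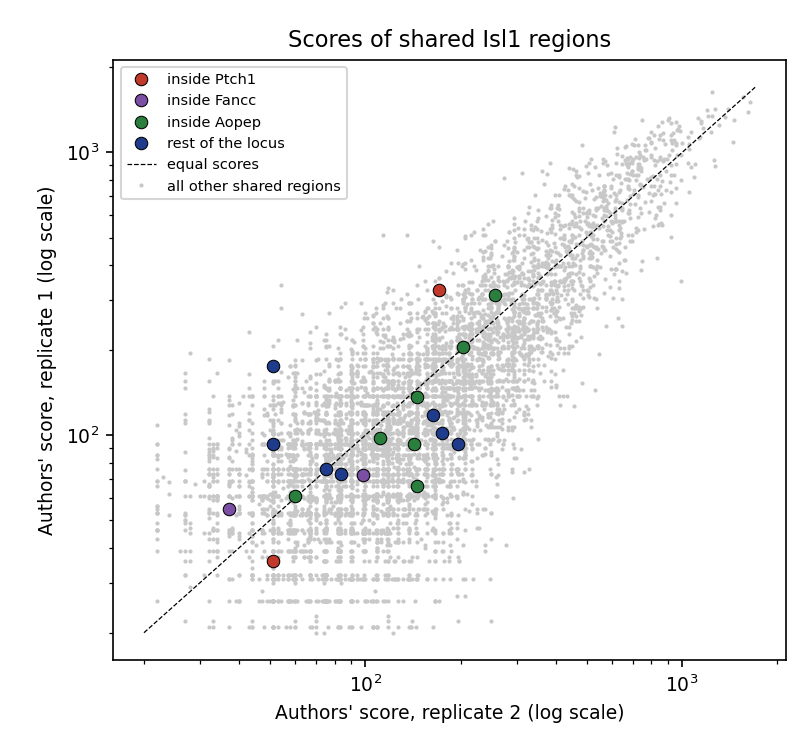
Authors' scores of the 18 shared regions of the locus (coloured circles, by gene) among all shared regions (grey points), replicate 2 on the x axis and replicate 1 on the y axis, both on log scales; the dashed line marks equal scores. No coloured circle exceeds 327 in either replicate, while the grey points reach 1637 and 1638.

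None of the 18 shared regions lay within 1 kb of a start in the promoter table, which allows a share of up to 16.7%, against 13.2% of all shared regions (903 of 6834), so a difference is not detectable with this number of regions. The nearest were those at Ptch1, at 1.12 and 2.48 kb. The median distance to a start was 33.2 kb in the locus and 38.3 kb over all shared regions. Of the 10 starts of the table in the locus, 1 had a peak of either list within 1 kb, that of Ptch1.

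Counted by neighbourhood, the 3 genes were among the most crowded in the genome, which is how they came to be chosen, so the following are descriptions. Within 500 kb of Ptch1 lay 18 shared regions, the same 18 described above. Of 21887 protein-coding genes, 0.228% had at least 18 within 500 kb, and the median gene had 2. Within 250 kb of Ptch1 lay 7, for which no share over all genes is given here. With only peaks of a score of at least 100, Ptch1 had 6 within 500 kb, and 3.13% of genes had at least as many. Within 500 kb of Fancc lay 24 and within 500 kb of Aopep 18, both counts taking in the 6 before the Aopep start. At least as many lay near 0.0457% of genes for Fancc and 0.228% for Aopep. With only peaks of a score of at least 100, Fancc had 11 and Aopep 10. At that minimum 0.105% of genes had at least as many as Fancc and 0.206% as Aopep. The locus held 1.62 shared regions per 100 kb. The whole series held 0.254 per 100 kb, counted between the first and last protein-coding gene of each chromosome. The median distance between neighbouring shared regions was 22.9 kb in the locus, against 143 kb over all.

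**Figure D4:**
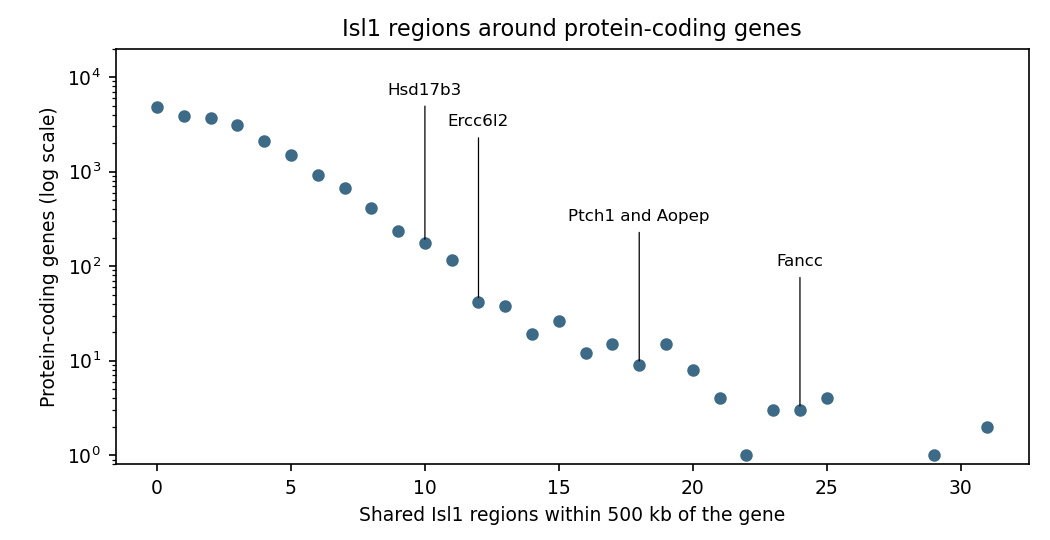
Number of protein-coding genes (y axis, log scale) by the number of shared Isl1 regions within 500 kb of the gene (x axis). Ptch1 and Aopep stand at 18 and Fancc at 24, with their neighbours Ercc6l2 at 12 and Hsd17b3 at 10; the median gene has 2.

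Regions inside the gene bodies set the genes apart in another order. At least 1 shared region lay inside 8.32% of all protein-coding genes, at least 2, as in Ptch1 and Fancc, in 2.57%, and at least 7, as in Aopep, in 0.174%. Long genes can hold more: among the 418 genes at least as long as Aopep, 30 held at least 7 (7.18%). Among the 1015 genes at least as long as Fancc, 333 held at least 2 (32.8%), so its count was common for its length. Among the 3854 at least as long as Ptch1, 504 held at least 2 (13.1%). Per length, Ptch1 had 3.07 shared regions per 100 kb of gene, Aopep 1.94 and Fancc 1.02. With only peaks of a score of at least 50, Ptch1 and Fancc kept 1 region each and Aopep 7, which turned the order of Ptch1 and Aopep (1.54 per 100 kb in Ptch1, 1.94 in Aopep and 0.51 in Fancc). Among genes at least as long, 25 of 3854 were as dense as Ptch1, 9 of 418 as dense as Aopep and 79 of 1015 as dense as Fancc.

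Among the 20 hedgehog pathway genes listed, Ptch1 had the most shared regions within 500 kb. This rank is a description only, because the locus was chosen for its peak counts. Of 20 pathway genes, with a median length of 66.1 kb against 17.2 kb for all, 5 held a shared region (25%), against 8.32% of all genes. The 5 include Ptch1, whose locus was chosen for its peaks, and without it 4 of the other 19 held one. These 4 were the pathway's transcription factors Gli1, Gli2 and Gli3 and Disp1, which releases the ligand from its source cells, with 1 region each. The region in Gli1 had scores of 622 in replicate 1 and 583 in replicate 2, that in Gli3 113 and 333, that in Disp1 179 and 174, and that in Gli2 73 and 53. A shared region lay within 500 kb of 19 of the 20, against 78% of all genes, with a median of 3.5 against 2, and the 19 other than Ptch1 had 0 to 11.

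The families of the 2 neighbours were counted in the same way. Of 16 Fanconi anaemia genes, 1 held a shared region, Fancc itself (6.25%, near the 8.32% of all genes), and the other 15 had 0 to 6 within 500 kb with a median of 2, the median of all genes. Of 11 genes of M1 aminopeptidases, whose median length was 58.4 kb against 17.2 kb for all genes, 4 held one (36.4%, against 8.32% of all genes): Aopep with 7, Trhde, which degrades thyrotropin-releasing hormone, with 2, and Erap1 and Lnpep, which trim peptides for antigen presentation, with 1 each. Without Aopep, whose locus was chosen for its peaks, 3 of the other 10 held a shared region. These 10 had 0 to 8 within 500 kb, with a median of 3.5 against 2 for all genes.

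Genes on other chromosomes with a like pattern were ranked by the summed log2 differences in regions inside, regions within 500 kb and gene length, from the 2 libraries. Closest to Ptch1 were Lnpk (1 region inside, 18 within 500 kb), Tmem26 (3 and 20) and Glrb (2 and 11), with summed differences of 0.60 to 0.77. Closest to Fancc were Cachd1 (2 inside, 17 within 500 kb), Kat6b (3 and 31) and Med13l (1 and 19), at 0.69 to 0.97. Closest to Aopep were Cmss1 (7 and 19), Bcas3 (7 and 16) and Tmtc2 (6 and 14), at 0.32 to 0.63.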

How the data were processed

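ChIP-seq of Isl1 was done on E14.5 genital tubercles in 2 replicates. Per the labels, tissue was fixed in 1% formaldehyde for 20 minutes and sheared to 150 to 400 bp, and sequencing gave single-end reads of 75 bp. The submitters' processing notes list Trimmomatic 0.35, Bowtie2 2.2.6, MACS2 2.1.0.20150731, bedtools and the build mm10, without saying how each was set or what part the input played. The deposited lists give each peak's position and a whole-number score set by the authors, lowest 20 in both lists. Read depth is unknown, and a site below the authors' threshold does not appear.

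Overlaps, midpoints (middle of the longest overlap) and counts were computed in Python 3.11.15 with pandas 2.3.3 and checked on simulated peaks. Genes and starts came from RefSeq tables of GRCm38.p6, whose coordinates are those of mm10; the tables give 1 start for each member, no exons and no genome. The locus, the lists and the measures were chosen with earlier results of these data known. Named were the 3 genes, the protein-coding genes holding or nearest to a shared region of the locus, list members with a region inside, and the 3 genes of closest pattern for each member. Alternatives changed the score minimum, the overlap rule, the midpoint, the window and the replicates used.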

Additional observations from a re-analysis of the deposited data

How the results depend on the processing

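Of 55 results recomputed under 9 settings, 42 stayed within 1.5 times for a count or within the 95% interval for a share, percentile or correlation, and 13 did not. With peaks of at least 50, the locus kept 16 shared regions, Ptch1 and Fancc held 1 each, and Ptch1 stood above 99.83% of genes by regions within 500 kb, against 99.77% with all peaks. With at least 100, the locus had 6 regions, all 6 within 500 kb of Ptch1, with 1 in Ptch1, 0 in Fancc and 3 in Aopep, and Ptch1 stood above 96.9% of genes. Reciprocal overlap of 50% put it above 99.66%. A window of 250 kb held 7 regions around Ptch1, and one of 1000 kb held 25. In single lists, Ptch1 held 3 to 4 peaks and Aopep 7 to 13. A gap of 100 bp or the midpoint of the joined span changed no count of the locus. No paired analysis was possible because only ChIP samples were analysed here. The number of weak peaks depends on read depth, which is unknown, so counts of low-score regions are the least certain.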
